A study of Mus musculus with 15 samples.

Results

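NRF2 antioxidant target genes are a set of 10 mouse genes that serve as standard readouts of the transcription factor NRF2. Described here are 9 of them: Gclc, Gclm, Txnrd1, Srxn1, Nqo1, Cbr1, Cbr3, Hmox1 and Abcc4. The genes were chosen by name and found on the array through probe sets annotated with that single gene symbol. Of the 10 genes, 9 had at least 1 such probe set (16 probe sets in all) and 8 were kept for testing, out of 18193 gene symbols on the array and 9482 genes kept. A gene was kept if a probe set reached a log2 value of 4 on at least 3 of the 15 arrays, since lower values lie close to background. The carbonyl reductase gene Cbr3 stayed under 4 on every array (2.25 to 3.8) and was not tested.

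RNA from the liver of mice aged 15 weeks was hybridised to 1 Affymetrix array per sample. Untreated wild-type mice (3 arrays) and treated wild-type mice (4 arrays) were of the C3H/HeOuJ strain. Treated mice received diethylnitrosamine (DEN, a liver carcinogen that alkylates DNA) at 100 mg/kg in week 12 and carbon tetrachloride (CCl4, a toxin activated in hepatocytes around the central vein) at 0.50 ml/kg in weeks 13 and 15, and were killed 48 hours after the last dose. Treated mutant mice (4 arrays) were of the C3H/HeJ strain, whose Tlr4, the receptor for bacterial lipopolysaccharide, carries the change P712H in every cell, and received the same DEN and CCl4. The antibiotic group (4 arrays) was wild type and also of the C3H/HeOuJ strain. It received the same DEN and CCl4 after 2 weeks on medicated drinking water, begun in week 10. The water held vancomycin (500 mg/l) together with metronidazole, neomycin and ampicillin (each at 1 g/l). No untreated mutant and no antibiotic group without DEN and CCl4 were analysed here, and strain and Tlr4 allele differ together, so they cannot be told apart. Nothing in the labels says whether the samples of a group came from separate experiments, so p-values measure only the spread between these samples.

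NRF2, encoded by Nfe2l2, is held in the cytoplasm by KEAP1, which hands it to a CUL3 ubiquitin ligase for destruction. Electrophiles and oxidants modify KEAP1, and NRF2 then accumulates, enters the nucleus, pairs with a small MAF protein (MAFF, MAFG or MAFK) and binds antioxidant response elements near its target genes. BACH1 occupies the same elements as a repressor and leaves them when haem binds it. In liver the targets make glutathione, regenerate thioredoxin, reduce quinones and carbonyls, break down haem, supply NADPH and export conjugates. Because the KEAP1 step acts on the protein, the level of Nfe2l2 mRNA is not a measure of NRF2 activity.

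The array itself gave a plain check of the tissue. The hepatocyte marker Alb stayed at 14.68 to 14.76 on average in all 4 groups. The summed linear signal of 7 hepatocyte markers ran from 118802 to 129147 on untreated arrays and from 102216 to 125021 on the arrays of the 3 treated groups. Of these 7 markers, 2 were called lower and 0 higher in treated than in untreated wild type, beside 26.7% and 35.9% of all genes. Of 4 periportal markers tested 2 were lower in treated wild type. Their summed signal ran from 25781 to 27899 untreated and from 14873 to 18260 in treated wild type. All 5 pericentral markers tested were lower in treated wild type, with Cyp2e1 at 14.33 ± 0.09 (SD, n = 3) before and 11.02 ± 0.69 (n = 4) after, and the cell division marker Mki67 went from 2.64 ± 0.05 to 11.25 ± 0.37. The 4 probe sets of Tlr4 lay between 1.81 and 3.67 on every array, under the level used here. Whether the Tlr4 point mutation alters that reading was not tested.

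The element that NRF2 and small MAF proteins bind has the core TGACNNNGC. This core was searched on both strands of the promoter windows of RefSeq assembly GRCm38.p6, each holding 250 bases before and 50 after a start site. RefSeq's windows are those of the C57BL/6J reference genome, not of C3H mice. Windows were at hand for 7 of the 9 genes (10 windows, since Abcc4 has 2 and Txnrd1 has 3), and Gclc and Hmox1 were without one. The core occurred in 5 of the 10 windows, covering 4 genes, against 12.4% of all 32851 windows and 14.0% of the 27025 genes that have one. The matches are printed here because they are the letters of the NRF2 element core found near these starts, with the core, or its reverse complement, in capitals and each sequence read 5′ to 3′ on the gene's own strand.
Abcc4, chr14:118676932-118676969, minus strand: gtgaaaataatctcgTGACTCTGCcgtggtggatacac
Abcc4, second start, chr14:118706221-118706259, minus strand: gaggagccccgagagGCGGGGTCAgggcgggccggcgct
Gclm, chr3:122245408-122245446, plus strand: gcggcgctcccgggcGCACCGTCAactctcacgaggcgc
Srxn1, chr2:152105542-152105570, plus strand: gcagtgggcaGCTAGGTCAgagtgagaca
Txnrd1, chr10:82859099-82859137, plus strand: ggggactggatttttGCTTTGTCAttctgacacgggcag
The core ran in the direction of the gene at the first Abcc4 start and on the opposite strand in the other 4 matches. The first capital letter of each match, as printed, lay at -23 and -25 from the 2 Abcc4 starts, -134 for Gclm, -92 for Txnrd1 and at 29 in Srxn1, that is, within the transcript. The windows of Nqo1, Cbr1 and Cbr3 did not hold the core letters, which says nothing of elements farther away. The related AP-1 motif TGANTCA occurred in 1 of the 10 windows against 7.8% of all windows, and did not overlap a core. These matches describe sequence only.

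Treatment with DEN and CCl4 was followed in wild-type liver by higher levels of most of the antioxidant genes. Of the 8 kept, 6 were higher (Gclc, Txnrd1, Srxn1, Cbr1, Hmox1 and Abcc4), Gclm was lower and Nqo1 did not pass the test. The background in this comparison was high: 35.9% of all genes were called higher and 26.7% lower. The median log2 difference of the 8 genes was 0.57, beside 0.10 for all genes tested. Tests were done with limma across all kept genes, and a gene was called at a Benjamini-Hochberg adjusted p under 0.05, which is the p given throughout. The all-gene median shifted from 0.10 to -0.12 when arrays were centred on their medians and to -0.03 after quantile normalization. Because these are whole livers, fewer cells of a type and less RNA per cell cannot be told apart in any of the comparisons.

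In the Tlr4 mutant, treated in the same way, 5 of the 8 genes were higher than in treated wild type (Gclc, Gclm, Srxn1, Cbr1 and Abcc4) and Hmox1 was lower. For Gclm, which was lower after treatment, the mutant lay between treated and untreated wild type. Here 13.2% of all genes were called higher and 17.6% lower, and the medians were 0.50 for the 8 genes and 0.02 for all. The antibiotic group differed from treated wild type in 2 of the 8 genes, Cbr1 higher and Hmox1 lower, against backgrounds of 4.95% and 9.01%, with medians of 0.23 and -0.03. These comparisons both use the treated wild-type arrays, so their values are given side by side and are not independent of each other.

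**Figure D1:**
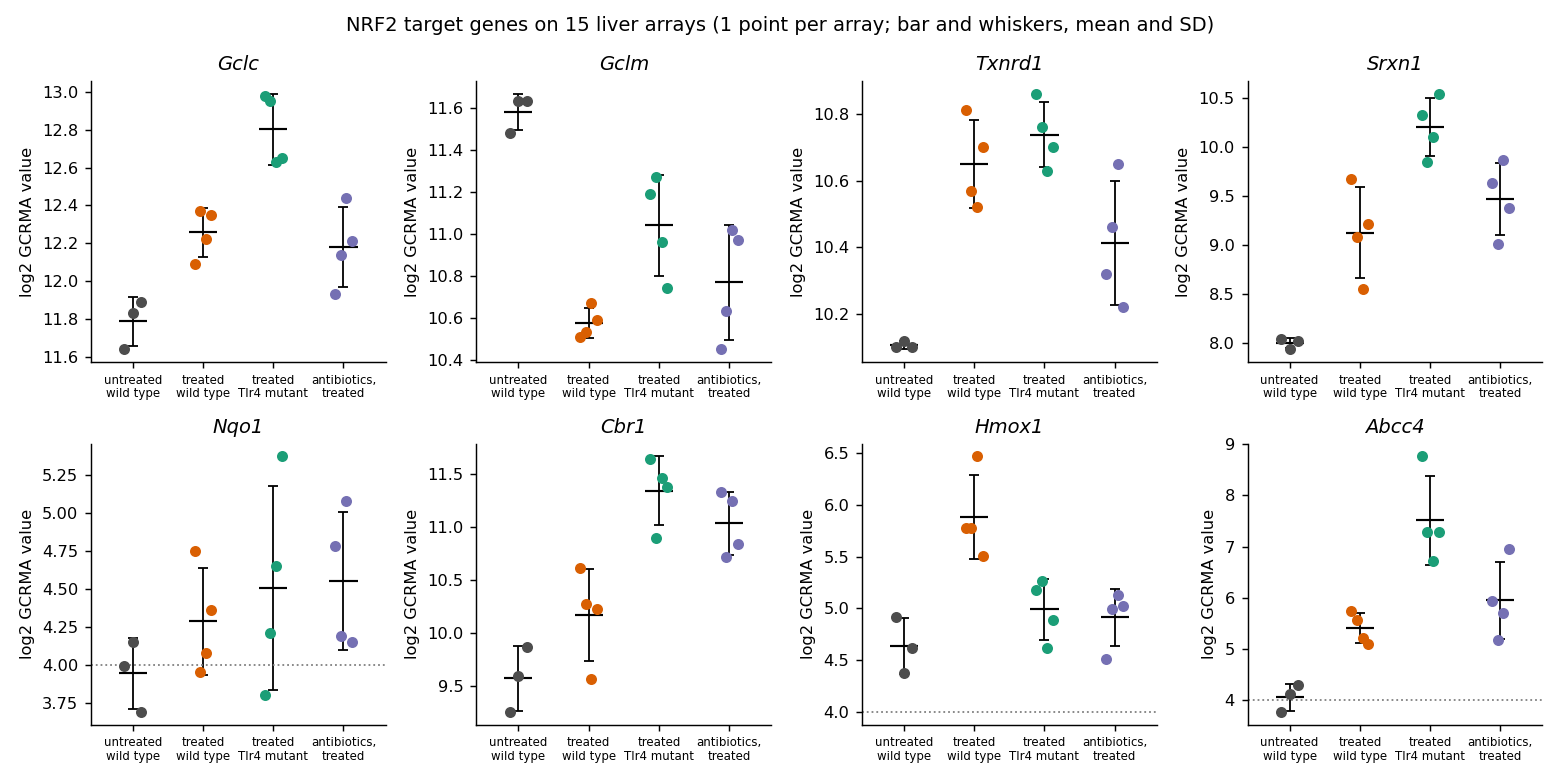
Deposited log2 GCRMA values (y axis, a scale of its own in each panel) of the probe set that stands for each of the 8 kept genes, with 1 point per array in the 4 groups on the x axis, and a bar and whiskers for mean and SD (n = 3 untreated, n = 4 in each other group). The dotted line marks the level of 4; the mutant arrays of Abcc4 (6.72 to 8.76) all lie above the treated wild-type arrays (5.1 to 5.74), and those of Hmox1 (4.62 to 5.27) all lie below (5.51 to 6.47).

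**Figure D2:**
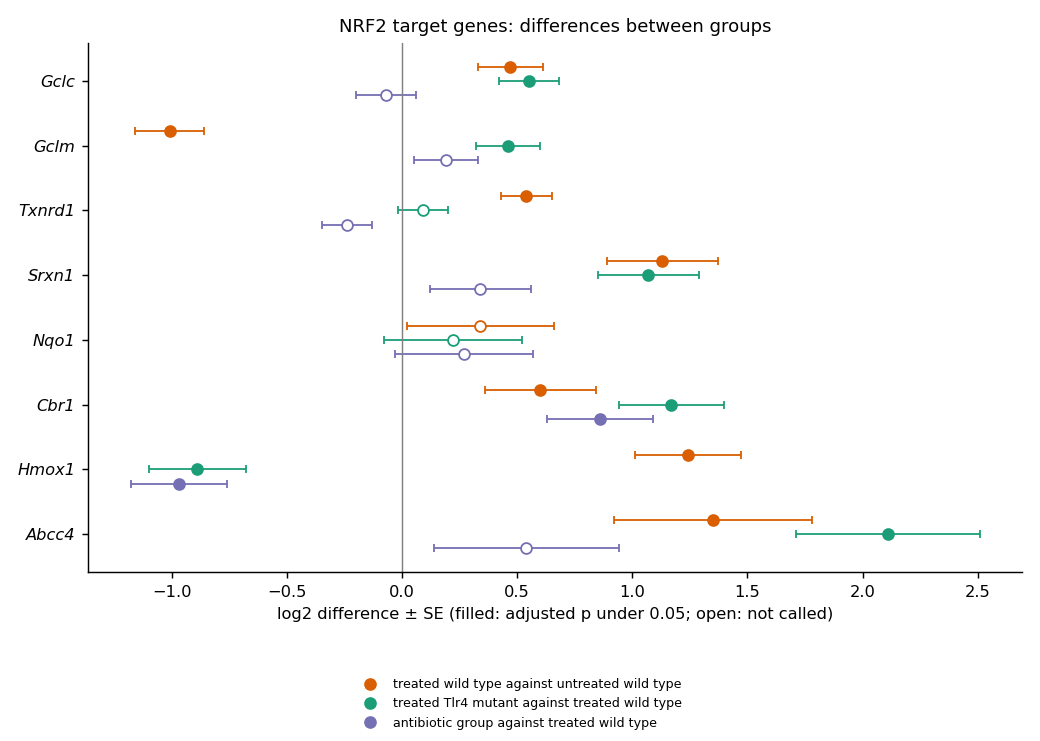
Log2 differences (x axis) with their standard errors for the 8 kept genes (y axis) in the 3 comparisons shown by colour, with filled points where the adjusted p was under 0.05. Gclm is the single gene whose treatment difference lies left of 0 (-1.01), and Hmox1 is the single gene with called differences left of 0 in the mutant (-0.89) and antibiotic (-0.97) comparisons.

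The first step of glutathione synthesis is catalysed by glutamate-cysteine ligase, a dimer of the catalytic subunit Gclc and the modifier subunit Gclm, which lowers feedback inhibition by glutathione. The 2 subunits moved apart after treatment of wild-type mice, Gclc upward and Gclm downward, and both were higher in the treated mutant than in treated wild type. For Gclc the untreated arrays read 11.64, 11.83 and 11.89, the treated wild-type arrays 12.09, 12.37, 12.22 and 12.35, the mutant arrays 12.98, 12.95, 12.63 and 12.65, and the antibiotic arrays 11.93, 12.14, 12.44 and 12.21. Every treated wild-type array was thus above every untreated one, every mutant array was above every other array, and the antibiotic arrays covered the range of treated wild type. The log2 difference of Gclc was 0.47 ± 0.14 (SE) for treatment of wild type (1.38-fold, adjusted p = 0.00864) and 0.55 ± 0.13 for mutant against treated wild type (1.46-fold, adjusted p = 0.00517). It was -0.07 ± 0.13 for the antibiotic group against treated wild type (adjusted p = 0.754). Centring the arrays left 0.25 for treatment of wild type (adjusted p = 0.133), which is no longer called. Gclc in the treated mutant stood 2.02-fold above untreated wild type (1.01 ± 0.14, adjusted p = 2.99e-05).

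Gclm followed another course. Its untreated arrays read 11.48, 11.63 and 11.63, its treated wild-type arrays 10.51, 10.53, 10.67 and 10.59, its mutant arrays 11.19, 11.27, 10.96 and 10.74, and its antibiotic arrays 10.45, 10.63, 11.02 and 10.97. No array of any treated group reached the untreated range. The fall in treated wild type was 2.01-fold (-1.01 ± 0.15, adjusted p = 4.79e-05), and the mutant and antibiotic groups were 1.46-fold (-0.54 ± 0.15, adjusted p = 0.00796) and 1.76-fold (-0.81 ± 0.15, adjusted p = 0.000379) under untreated wild type. Mutant arrays lay 0.46 ± 0.14 above treated wild type (1.38-fold, adjusted p = 0.0223) with no overlap, while the antibiotic arrays did not differ by the test (0.19 ± 0.14, adjusted p = 0.406). The mutant call for Gclm was lost when any of 4 arrays was left out (treated wild-type replicates 1 and 2 and mutant replicates 1 and 2), with log2 differences of 0.39 to 0.57 over the 8 arrays left out in turn and adjusted p of 0.0514 to 0.0738 where lost.

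Both subunits had a second kept probe set, and these gave part of the same picture. For Gclc the second probe set averaged 11.17 ± 0.08 (n = 3) untreated, 11.39 ± 0.12 (n = 4) in treated wild type, 11.92 ± 0.19 in the mutant and 11.29 ± 0.12 in the antibiotic group. It repeated the mutant difference (0.53 ± 0.11, adjusted p = 0.0031) but was not called for treatment of wild type (0.22 ± 0.12, adjusted p = 0.144). For Gclm the second probe set read 11.26, 11.13 and 11.31 untreated and 9.43, 9.88, 9.69 and 9.73 in treated wild type, a 2.93-fold fall (-1.55 ± 0.16, adjusted p = 1.27e-06). Its mutant arrays read 9.61, 10.31, 10.08 and 10.05, which overlap treated wild type, and the difference was not called (0.33 ± 0.15, adjusted p = 0.108). The direction of the treatment effect on Gclm is therefore shared by its probe sets, and its mutant difference was called with 1 probe set of 2.

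In the thioredoxin system, Txnrd1 encodes the NADPH-dependent reductase of cytosolic thioredoxin, and Srxn1 encodes sulfiredoxin, which rescues peroxiredoxins that peroxide has overoxidised. Both were higher after treatment in wild type, and only for Srxn1 did the mutant lie above treated wild type by the test. The untreated arrays of Txnrd1 read 10.10, 10.12 and 10.10, the treated wild-type arrays 10.81, 10.57, 10.52 and 10.70, the mutant arrays 10.86, 10.76, 10.63 and 10.70, and the antibiotic arrays 10.32, 10.46, 10.65 and 10.22. All 12 treated arrays were above the untreated ones, the mutant arrays fell within or just above the treated wild-type range, and 3 of the 4 antibiotic arrays lay below it. Treatment raised Txnrd1 1.45-fold in wild type (0.54 ± 0.11, adjusted p = 0.000905), and the treated mutant stood 1.54-fold above untreated (0.63 ± 0.11, adjusted p = 0.000374). Neither the mutant (0.09 ± 0.11, adjusted p = 0.566) nor the antibiotic group (-0.24 ± 0.11, adjusted p = 0.154) was called against treated wild type. The other 2 Txnrd1 probe sets stayed between 1.63 and 2.46 on all arrays and were not tested.

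Srxn1 showed the steeper climb of the pair. The probe set that stands for it read 8.04, 7.94 and 8.02 untreated, 9.67, 9.08, 8.55 and 9.21 in treated wild type, 10.32, 9.85, 10.10 and 10.54 in the mutant and 9.63, 9.01, 9.87 and 9.38 in the antibiotic group. Untreated, treated wild-type and mutant arrays formed 3 separate steps with no overlap, and the antibiotic arrays overlapped both treated groups. The log2 differences were 1.13 ± 0.24 for treatment of wild type (2.19-fold, adjusted p = 0.000947), 1.07 ± 0.22 for mutant against treated wild type (2.1-fold, adjusted p = 0.00249) and 0.34 ± 0.22 for the antibiotic group (adjusted p = 0.342). The treated mutant was 4.6-fold above untreated wild type (adjusted p = 4.2e-06).

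A second kept probe set of Srxn1 went with the first for treatment and not for the mutant. Its arrays read 3.77, 4.07 and 4.38 untreated, 6.60, 6.25, 5.48 and 6.22 in treated wild type, 5.73, 5.77, 6.77 and 6.32 in the mutant and 5.75, 5.76, 6.28 and 5.56 in the antibiotic group. The treatment difference was 2.07 ± 0.28, at least 3.97-fold with the 1 untreated array under 4 set to 4 (adjusted p = 2.06e-05), and the mutant and treated wild-type arrays overlapped with a difference of 0.01 ± 0.26 (adjusted p = 0.989). With the mean of the kept probe sets in place of the brighter one, the mutant difference of Srxn1 was 0.54 (adjusted p = 0.0751). The remaining 2 Srxn1 probe sets reached 4 on 2 arrays each and were not tested.

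**Figure D3:**
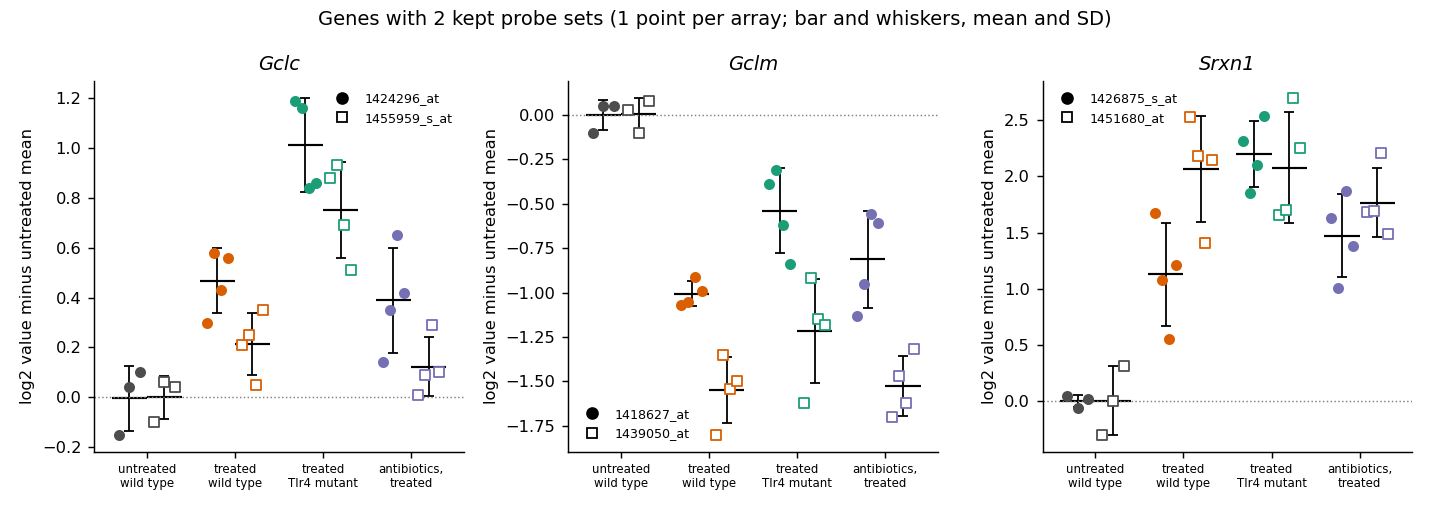
Values of both kept probe sets of Gclc, Gclm and Srxn1, as log2 value minus the untreated mean of the same probe set (y axis), by group (x axis), with 1 point per array and a bar and whiskers for mean and SD (n = 3 untreated, n = 4 in each other group). The treatment difference points the same way in both probe sets of each gene, while the mutant step of Srxn1 is 1.07 in the filled probe set and 0.01 in the open one.

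Over all 11 kept probe sets of the antioxidant genes, 7 were higher and 2 lower in treated against untreated wild type, where 34.2% of all 15541 kept probe sets were called higher and 25.7% lower. In the mutant against treated wild type 6 were higher and 1 lower (background 12.5% and 16.1%). In the antibiotic group against treated wild type 1 was higher and 1 lower (background 4.47% and 7.86%).

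Among the enzymes of quinone and carbonyl reduction, Cbr1 was higher in all 3 treated groups and Nqo1 in none by the test. CBR1 reduces carbonyls, including aldehydes and ketones from lipid peroxidation, with NADPH. Cbr1 arrays read 9.26, 9.60 and 9.87 untreated, 10.61, 10.27, 9.57 and 10.23 in treated wild type, 11.64, 10.89, 11.46 and 11.37 in the mutant and 11.33, 10.72, 11.24 and 10.84 in the antibiotic group. Every mutant and antibiotic array was above every treated wild-type array, and 1 treated wild-type array (replicate 3, 9.57) lay inside the untreated range. The mutant exceeded treated wild type 2.25-fold (1.17 ± 0.23, adjusted p = 0.00141) and the antibiotic group exceeded it 1.81-fold (0.86 ± 0.23, adjusted p = 0.0218). Against untreated wild type the mutant was 3.4-fold higher (1.77 ± 0.24, adjusted p = 3.28e-05) and the antibiotic group 2.74-fold (1.45 ± 0.24, adjusted p = 0.000148). The treated wild-type difference was smaller, 1.51-fold (0.60 ± 0.24, adjusted p = 0.0445), and lost its call when each of 5 of the 7 arrays was left out (untreated replicates 1 and 2 and treated wild-type replicates 1, 2 and 4; adjusted p = 0.0815 to 0.18 where lost), after centring (0.37, adjusted p = 0.192) and after quantile normalization (0.55, adjusted p = 0.0602). The antibiotic call was lost without treated wild-type replicate 3 (0.66, adjusted p = 0.0582), antibiotic replicate 1 (0.76, adjusted p = 0.0673) or antibiotic replicate 3 (0.79, adjusted p = 0.0583), so that none of the 8 genes was then called higher in that comparison.

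Nqo1, the quinone reductase that is the textbook NRF2 target, sat at the edge of detection. Its arrays read 3.99, 4.15 and 3.69 untreated, 4.75, 3.95, 4.08 and 4.36 in treated wild type, 3.80, 4.21, 4.65 and 5.37 in the mutant and 4.78, 4.19, 5.08 and 4.15 in the antibiotic group, with 11 of 15 at or above 4. The groups overlapped except that all antibiotic arrays were at or above the highest untreated one. Differences were 0.34 ± 0.32 for treatment of wild type (adjusted p = 0.376), 0.22 ± 0.30 for the mutant (adjusted p = 0.613) and 0.27 ± 0.30 for the antibiotic group (adjusted p = 0.609). With values this close to background, changes of the size seen in Gclc or Txnrd1 were not detectable with this probe set. Without mutant replicate 1 the difference between mutant and untreated wild type, 0.56 ± 0.32 with all arrays (adjusted p = 0.156), became 0.80 (adjusted p = 0.0443). Cbr3 averaged 2.34 ± 0.09 untreated, 3.30 ± 0.34 in treated wild type, 2.95 ± 0.32 in the mutant and 3.0 ± 0.12 in the antibiotic group, all in the range of background.

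Hmox1 encodes haem oxygenase 1, which opens the haem ring to biliverdin, iron and carbon monoxide, and which is made by macrophages that clear red cells as well as by stressed hepatocytes. It was the single gene of the set that was high in treated wild type alone. The arrays read 4.92, 4.38 and 4.62 untreated, 5.78, 5.78, 6.47 and 5.51 in treated wild type, 5.18, 5.27, 4.62 and 4.89 in the mutant and 4.51, 4.99, 5.13 and 5.02 in the antibiotic group. All 4 treated wild-type arrays were above all 11 others, and the mutant and antibiotic arrays overlapped the untreated ones. Treatment raised Hmox1 2.36-fold in wild type (1.24 ± 0.23, adjusted p = 0.000275). The mutant was 1.86-fold below treated wild type (-0.89 ± 0.21, adjusted p = 0.00546) and the antibiotic group 1.96-fold below (-0.97 ± 0.21, adjusted p = 0.00932). Against untreated wild type neither the mutant (0.35 ± 0.23, adjusted p = 0.213) nor the antibiotic group (0.27 ± 0.23, adjusted p = 0.329) was called.

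Most tested markers of several other cell types moved in the same directions as Hmox1 in the 3 main comparisons, those of macrophages among them. Of 10 macrophage and Kupffer cell markers 9 were tested (Timd4 was below the level), and 7 were higher in treated than in untreated wild type. Against treated wild type, 8 were lower in the mutant and 7 lower in the antibiotic group. The shares of all genes called in these directions were 35.9%, 17.6% and 9.01%, also for the marker counts below. Vsig4, a complement receptor of Kupffer cells, averaged 7.46 ± 1.31 untreated, 9.36 ± 0.46 in treated wild type, 3.77 ± 0.23 in the mutant and 6.89 ± 0.70 in the antibiotic group. Not called were Clec4f and Cd163 for treatment, Cd68 in the mutant, and Cd68 and Marco in the antibiotic group. Cd68, a lysosomal protein of phagocytes, was at 9.29 ± 0.32 in treated wild type, 9.32 ± 0.41 in the mutant and 10.15 ± 0.63 in the antibiotic group. The summed linear signal of the 10 markers, in which bright probe sets weigh most, ran from 704 to 1883 untreated, 4315 to 6635 in treated wild type, 870 to 1275 in the mutant and 2031 to 4120 in the antibiotic group. Of 5 neutrophil markers 2 were tested, and both were higher after treatment and lower in the mutant and in the antibiotic group. The summed signal of the 4 neutrophil markers on the array, tested or not, ran from 21 to 23 untreated and 58 to 136 in treated wild type. It ran from 22 to 38 in the mutant and 22 to 32 in the antibiotic group. All 6 stellate cell markers were higher after treatment and lower in the mutant, and 4 were lower in the antibiotic group. The 3 cell division markers tested were higher after treatment and lower in both other groups than in treated wild type. Of 3 endothelial markers tested, 1 was higher after treatment, 3 were lower in the mutant and 0 were called in the antibiotic group. Of 3 cholangiocyte markers tested, 2 were higher after treatment, and in the mutant 1 was higher and 0 lower. Against untreated wild type, the mutant had 2 macrophage markers higher and 6 lower, and 4 of 6 stellate cell markers higher and 0 lower (32.6% and 21.5% of all genes). The antibiotic group had 4 macrophage markers higher and 0 lower, and all 6 stellate cell markers higher than untreated (34.5% and 24.3%). All 3 cell division markers tested were higher than untreated in both groups. The part of any of these cells in the Hmox1 differences was not tested.

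**Figure D4:**
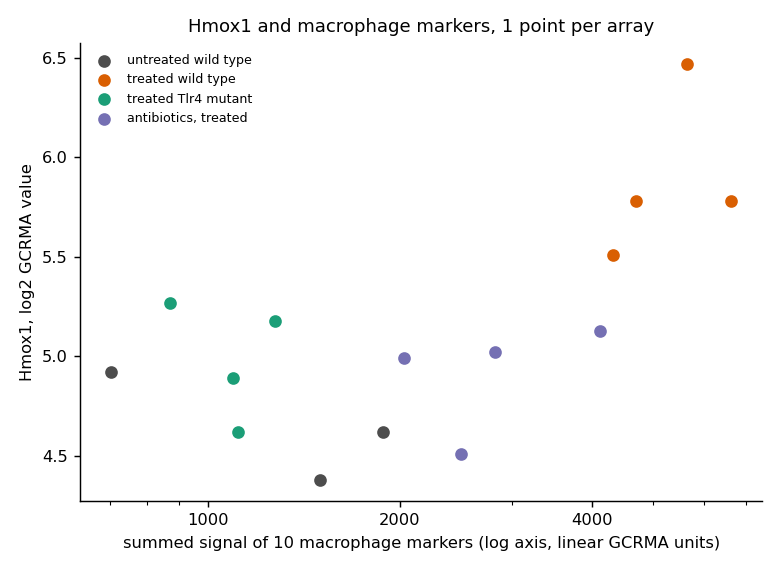
Hmox1 (y axis, log2 GCRMA value) against the summed linear signal of 10 macrophage markers (x axis, log scale), with 1 point per array coloured by group. The 4 treated wild-type arrays have the highest values on both axes (Hmox1 5.51 to 6.47, markers 4315 to 6635), while among the other groups Hmox1 stays between 4.38 and 5.27 as the marker sum runs from 704 to 4120.

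Abcc4 encodes MRP4, an efflux pump of the basolateral hepatocyte membrane that exports bile acids and conjugates into the blood. Among the probe sets that stand for the 8 genes, with all arrays, it had the largest difference in both the treatment and the mutant comparison, though the second Srxn1 probe set differed more for treatment (2.07). The arrays read 3.77, 4.11 and 4.29 untreated, 5.74, 5.56, 5.22 and 5.10 in treated wild type, 8.76, 7.29, 6.72 and 7.28 in the mutant and 5.94, 5.18, 5.71 and 6.96 in the antibiotic group. Untreated, treated wild-type and mutant arrays did not overlap, and antibiotic replicate 4 lay above the lowest mutant array. Treatment raised Abcc4 in wild type by 1.35 ± 0.43, at least 2.41-fold with the untreated array under 4 set to 4 (adjusted p = 0.0132). The mutant was 4.3-fold above treated wild type (2.11 ± 0.40, adjusted p = 0.00117) and at least 10.4-fold above untreated wild type (3.45 ± 0.43, adjusted p = 1.27e-05). The antibiotic group was not called against treated wild type (0.54 ± 0.40, adjusted p = 0.399) and was at least 3.51-fold above untreated (1.89 ± 0.43, adjusted p = 0.00161). Without untreated replicate 1, the array under 4, the treatment difference in wild type was 1.2 (adjusted p = 0.0522).

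The genes whose course over the 12 treated arrays, as value minus untreated mean, came nearest to that of Abcc4 were Pmm1, Fam171b and Cyp39a1, with root mean square differences of 0.53, 0.57 and 0.57 log2 units beside a median of 2.41 over the 9481 other kept genes. The untreated arrays of Pmm1 (2.94 to 3.1) and Fam171b (1.65 to 2.38) were under the level of 4, so their courses start from background and their order is not exact. Cyp39a1, an oxysterol hydroxylase of bile acid synthesis, averaged 6.72 ± 1.38 untreated, 7.84 ± 0.25 in treated wild type, 9.63 ± 0.37 in the mutant and 8.99 ± 0.55 in the antibiotic group. Nearest to Hmox1 were Cxcl16 (0.27), Mcph1 (0.27) and Slc38a1 (0.28), beside a median of 0.93, and the untreated means of Mcph1 (3.86) and Slc38a1 (2.69) were likewise under 4. Cxcl16, a chemokine that is also a scavenger receptor, averaged 4.34 ± 0.25, 5.45 ± 0.09, 4.68 ± 0.16 and 4.65 ± 0.31 in the same order of groups.

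Set against untreated wild type, the treated mutant had 5 of the 8 genes higher (Gclc, Txnrd1, Srxn1, Cbr1 and Abcc4) and Gclm lower, with 32.6% of all genes called higher and 21.5% lower. The medians were 0.82 for the 8 genes and 0.13 for all. The antibiotic group had 5 genes higher (Gclc, Txnrd1, Srxn1, Cbr1 and Abcc4) and Gclm lower against untreated wild type, with backgrounds of 34.5% and 24.3%, and medians of 0.50 and 0.11. These comparisons share the untreated arrays. In the antibiotic group the calls of Gclc (0.39 ± 0.14, adjusted p = 0.0235) and Txnrd1 (0.30 ± 0.11, adjusted p = 0.0347) depended on the processing. Neither was called after centring (0.22 and 0.12), nor without untreated replicate 1 (0.32 and 0.30) or antibiotic replicate 3 (0.31 and 0.22), leaving 3 genes called higher. The Txnrd1 call was lost without each of 5 of the 7 arrays, and when fitting only the arrays of both groups (adjusted p = 0.0786). For Gclc the second kept probe set was not called (0.12 ± 0.12, adjusted p = 0.418). Nor was the mean of the kept Gclc probe sets (0.26, adjusted p = 0.0866).

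The antibiotic group and the treated mutant were also compared with each other. Gclc (-0.62 ± 0.13, 1.54-fold, adjusted p = 0.00658), Srxn1 (-0.73 ± 0.22, 1.66-fold, adjusted p = 0.0475) and Abcc4 (-1.56 ± 0.40, 2.95-fold, adjusted p = 0.0196) were lower in the antibiotic group, 3 of 8 against a background of 5.41%. None was called higher, against 6.88% of all genes, and the medians were -0.32 and -0.02. Cbr1 (-0.31 ± 0.23, adjusted p = 0.392) and Hmox1 (-0.08 ± 0.21, adjusted p = 0.847) were not called. For Gclc no antibiotic array reached the mutant range, while for Srxn1 and Abcc4 the ranges overlapped. The second kept probe set of Gclc was also called lower (-0.63 ± 0.11, adjusted p = 0.00347). That of Srxn1 was not called (-0.31 ± 0.26, adjusted p = 0.487), nor was the mean of the kept Srxn1 probe sets (-0.52, adjusted p = 0.133). When fitting only the arrays of both groups, neither Srxn1 (adjusted p = 0.0699) nor Abcc4 (adjusted p = 0.0789) was called. The Srxn1 call was lost when each of 6 of the 8 arrays was left out (mutant replicates 1, 3 and 4 and antibiotic replicates 1, 2 and 4; adjusted p = 0.0519 to 0.126 where lost), and the Abcc4 call without antibiotic replicate 2 (-1.31, adjusted p = 0.0592) or replicate 3 (-1.48, adjusted p = 0.0565). Without antibiotic replicate 2, Gclc alone of the 8 was called.

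Nfe2l2 and the regulators of NRF2 were measured on the same arrays, and 9 of these 10 genes were tested (the ligase subunit gene Rbx1 was below the level). In treated against untreated wild type 1 was higher and 4 lower (35.9% and 26.7% of all genes). In the mutant against treated wild type 5 were higher and 1 lower (13.2% and 17.6%), and in the antibiotic group 1 was lower (9.01%). The gene higher after treatment, and lower in the mutant and the antibiotic group, was Nfe2l2 and not a regulator. Nfe2l2 itself averaged 10.09 ± 0.07 untreated, 10.84 ± 0.12 in treated wild type, 10.28 ± 0.25 in the mutant and 10.37 ± 0.21 in the antibiotic group. It was higher after treatment (0.76 ± 0.14, adjusted p = 0.00037) and lower in the mutant (-0.56 ± 0.13, adjusted p = 0.00554) and the antibiotic group (-0.48 ± 0.13, adjusted p = 0.0296) than in treated wild type. A second kept probe set of Nfe2l2, at 4.28 to 4.49 on average and so near background, differed by 0.13, 0.07 and -0.01 in these comparisons, and none of the 3 calls held for the mean of both probe sets (0.44, -0.24 and -0.24, adjusted p = 0.0826, 0.371 and 0.443). The antibiotic call was also lost when each of 4 of the 8 arrays was left out (treated wild-type replicates 2, 3 and 4 and antibiotic replicate 1; adjusted p = 0.0588 to 0.0899).

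Keap1, the cytoplasmic sensor, and Cul3, the ligase scaffold, were not called in the 3 main comparisons. Their treatment differences were -0.28 ± 0.13 (adjusted p = 0.0716) and -0.20 ± 0.10 (adjusted p = 0.091), and both were called lower after centring (-0.50, adjusted p = 0.00306, and -0.42, adjusted p = 0.00189). Keap1 was also called lower after quantile normalization (-0.47, adjusted p = 0.00428), and Cul3 for the mean of its kept probe sets (-0.38, adjusted p = 0.00562). The other alternatives left both uncalled for treatment. Of the small MAF partners, Mafg was 1.67 lower on the log2 scale in treated than in untreated wild type (-1.67 ± 0.19, adjusted p = 2.42e-06) and higher in the mutant than in treated wild type (0.58 ± 0.17, adjusted p = 0.0199). Maff was not called for treatment (0.05 ± 0.32, adjusted p = 0.899) and was higher in the mutant (1.26 ± 0.30, adjusted p = 0.00549). So was Mafk (0.57 ± 0.17, adjusted p = 0.0186). The Mafk call was lost without treated wild-type replicate 4 or mutant replicate 1 or 2. It was also lost when fitting only the arrays of both groups (adjusted p = 0.0566). Mafk averaged 4.12 ± 0.12 in treated wild type and 4.69 ± 0.42 in the mutant, near background, with overlapping arrays. Its treatment difference was not called (-0.35 ± 0.18, adjusted p = 0.105). Mafk was called lower after centring (-0.57, adjusted p = 0.0121) and quantile normalization (-0.62, adjusted p = 0.00438). Fitting only the arrays compared also called it (adjusted p = 0.0193). Bach1, the repressor, was lower after treatment (-0.79 ± 0.18, adjusted p = 0.00169) and was not called in the mutant (0.12 ± 0.17).

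Sqstm1, the autophagy receptor p62 that sequesters KEAP1 and is itself an NRF2 target, was lower after treatment (-1.01 ± 0.37, adjusted p = 0.0283) and higher in the mutant (1.04 ± 0.34, adjusted p = 0.0329). The first Sqstm1 call was lost when any array but treated wild-type replicate 1 was left out, and the second without treated wild-type replicate 2, 3 or 4 or mutant replicate 1 or 2. Nfe2l1, the related factor NRF1 that governs proteasome genes, was lower after treatment (-0.64 ± 0.19, adjusted p = 0.00807) and higher in the mutant (0.52 ± 0.17, adjusted p = 0.0349), the latter call being lost without treated wild-type replicate 3 or 4 or mutant replicate 1 or 2.

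**Figure D5:**
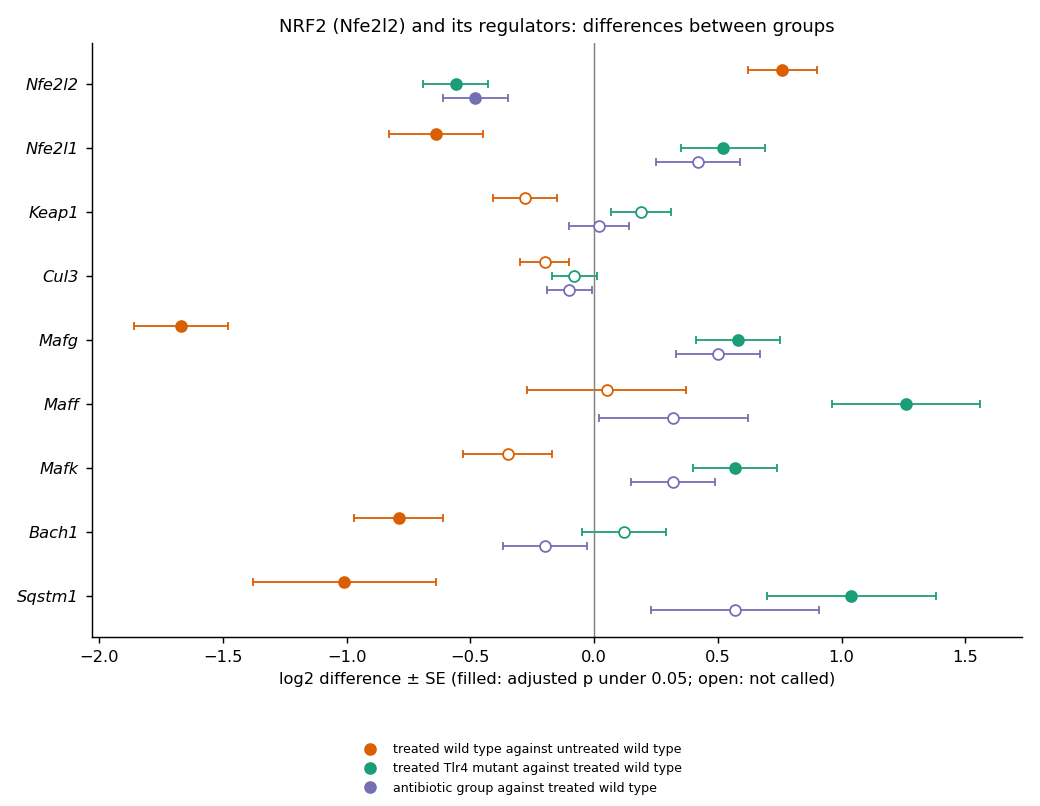
Log2 differences (x axis) with their standard errors for Nfe2l2 and the 8 regulators tested (y axis) in the 3 comparisons shown by colour. Points are filled where the adjusted p was under 0.05. Nfe2l2 is the single gene shown that is called right of 0 for treatment of wild type (0.76) and the single one called left of 0 in the mutant (-0.56).

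Beyond the 10 genes and counting Nfe2l2 and the regulators, 59 further genes of the pathway were listed, of which 51 were named on the array and 48 tested. In treated against untreated wild type 8 were higher and 22 lower, beside 35.9% and 26.7% of all genes, with a median of -0.28 beside 0.10; the 8 antioxidant genes had 6 higher and 1 lower. In the mutant against treated wild type 13 were higher and 4 lower, beside 13.2% and 17.6% of all genes (median 0.24 beside 0.02). In the antibiotic group against treated wild type 0 were higher and 2 lower, beside 4.95% and 9.01% of all genes (Nfe2l2 and Abcc2; median 0.03 beside -0.03).

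Among the other glutathione genes, Gss, whose product completes glutathione synthesis, was higher after treatment (1.00 ± 0.16, adjusted p = 6.84e-05), as was the glutathione reductase gene Gsr (0.44 ± 0.17, adjusted p = 0.0384). Gsr was not called after centring (0.21, adjusted p = 0.288) and lost its call without untreated replicate 2 or 3 or treated wild-type replicate 2 or 4. Mgst1, a microsomal transferase, was lower (-0.41 ± 0.09, adjusted p = 0.00111), and none of the 5 genes tested was called in the mutant or antibiotic comparison. The cystine carrier gene Slc7a11 and Gpx2 were below the level.

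The glutathione S-transferases, which conjugate electrophiles to glutathione, were mostly lower after treatment: of 8 tested, 6 were lower and none higher, beside 26.7% and 35.9% of all genes, and Gsta2 (0.02 ± 0.24) and Gsta4 (0.09 ± 0.13) were not called. Gstm3 (-1.89 ± 0.63, adjusted p = 0.0168), Gstm4 (-1.15 ± 0.26, adjusted p = 0.00143) and Gstm2 (-1.07 ± 0.31, adjusted p = 0.00802) fell most. In the mutant against treated wild type 3 were higher and none lower, namely Gstm3 (1.66 ± 0.58, adjusted p = 0.0416), Gstm1 (1.07 ± 0.28, adjusted p = 0.0104) and Gstp1 (0.25 ± 0.08, adjusted p = 0.036). In the mutant comparison the Gstm3 call was lost when any array but treated wild-type replicate 1 was left out, and the Gstp1 call without treated wild-type replicate 2, 3 or 4 or mutant replicate 1 or 2. The treatment call of Gstm3 was lost without untreated replicate 2 or treated wild-type replicate 3. The transferase genes have near-identical copies, so probe sets may read more than 1 of them.

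The enzymes listed with NADPH supply were split. Pgd, an enzyme of the pentose phosphate pathway, was higher after treatment (0.77 ± 0.15, adjusted p = 0.000548), while Me1, the cytosolic malic enzyme, went from 11.79 ± 0.24 to 9.71 ± 0.16 (-2.08 ± 0.15, adjusted p = 3.61e-08) and Idh1 fell too (-0.56 ± 0.10, adjusted p = 0.00014). The list also held pentose phosphate enzymes that do not make NADPH themselves. None of the 5 genes tested from it was called in the mutant or antibiotic comparison. Thioredoxin itself, Txn1, was higher after treatment (0.30 ± 0.09, adjusted p = 0.0105), though not after centring (0.08, adjusted p = 0.484).

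In the conjugation, oxidation and export group Akr1b8, an aldo-keto reductase, averaged 3.45 ± 0.33 untreated, 6.09 ± 0.44 in treated wild type, 3.9 ± 0.29 in the mutant and 5.58 ± 0.41 in the antibiotic group. All 3 untreated arrays and 2 mutant arrays were under 4, and with these set to 4 it was at least 4.27-fold higher after treatment (2.64 ± 0.26, adjusted p = 8.27e-07) and at least 4.08-fold lower in the mutant than in treated wild type (-2.19 ± 0.24, adjusted p = 1.72e-05). The antibiotic group was not called against treated wild type (-0.52 ± 0.24, adjusted p = 0.172). Aox1, aldehyde oxidase, moved the other way (-1.93 ± 0.24 for treatment, adjusted p = 6.31e-06, and 1.04 ± 0.22 for the mutant, adjusted p = 0.00266). Pir was higher in the mutant (0.67 ± 0.14, adjusted p = 0.00199). The export pump genes beside Abcc4 differed from it: Abcc3 was lower after treatment (-0.65 ± 0.18, adjusted p = 0.00512) and lower again in the mutant (-0.51 ± 0.16, adjusted p = 0.0293), and Abcc2 was lower in the antibiotic group (-0.50 ± 0.11, adjusted p = 0.00897).

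In haem and iron handling, the biliverdin reductase gene Blvra, which acts on the product of HMOX1, was higher after treatment (1.07 ± 0.13, adjusted p = 5.76e-06) and lower in the mutant than in treated wild type (-0.37 ± 0.12, adjusted p = 0.03), a call lost without treated wild-type replicate 1 or 4 or mutant replicate 1, 2 or 4. After treatment Blvrb was lower (-1.62 ± 0.25, adjusted p = 6.36e-05). The mitochondrial porphyrin carrier gene Abcb6 fell after treatment (-0.99 ± 0.15, adjusted p = 3.86e-05) and was higher in the mutant (0.79 ± 0.14, adjusted p = 0.000579). Slc48a1, which moves haem out of lysosomes, was higher in the mutant (1.56 ± 0.25, adjusted p = 0.000414), though its second kept probe set was not (-0.41 ± 0.31, adjusted p = 0.358). Blvrb was also higher in the mutant (0.72 ± 0.23, adjusted p = 0.031), a call lost without treated wild-type replicate 1, 2 or 4 or mutant replicate 1 or 2. Of the stress enzymes listed, Cat (-0.76 ± 0.14, adjusted p = 0.000268), Sod2 (-0.58 ± 0.10, adjusted p = 0.000121) and Sod1 (-0.28 ± 0.09, adjusted p = 0.016) were lower after treatment, and none of the 6 tested was called in the mutant or antibiotic comparison.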

How the data were processed

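The deposited values are log2 probe set summaries made by the authors with GCRMA, per the submitters' processing notes, which give no version. GCRMA corrects background by probe sequence and normalises between arrays; its settings are not given in the sources used here. The table held 45101 probe sets on 15 arrays. Of these, 34945 carried 1 gene symbol in the platform annotation, 932 several, 9160 none and 64 were controls; only those with 1 symbol were used. Between 34.6% and 36.7% of probe sets reached 4 per array.

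The filter kept 15541 probe sets, those at 4 or more on 3 or more arrays. A gene was represented by its brightest kept probe set on average, which left 9482 genes. A model of 4 group means was fitted to the 15 arrays in limma 3.58.1 (R 4.3.3; 11 residual and 3.4 prior degrees of freedom), and p was adjusted after Benjamini and Hochberg within a comparison, with a threshold of 0.05. A second fit on all kept probe sets gave the p of second probe sets. In the lower group of a fold, arrays under 4 were set to 4 and the fold was called a lower bound. The code was tested on simulated data. Tables and plots used Python 3.11.15, pandas 2.3.3 and matplotlib 3.10.9. Number of arrays and signal over background limit the precision; counts of molecules do not apply.

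The 10 genes, the other lists and the tests were chosen with earlier results of these data known. Of these 10, 1 gene is not reported here. Named besides them were Nfe2l2, the regulators of NRF2, fixed markers, and up to 3 called genes per list and comparison with the largest differences. The 3 genes nearest to Abcc4 and Hmox1 were named too. Slc7a11, Gpx2, Rbx1, Timd4 and Tlr4 were named for their absence. Clec4f, Cd163, Marco, Gsta2, Gsta4 and, in the mutant, Blvra and Abcc3 were named after their values were seen. Alternatives were centring, quantile normalization, a floor at 4, no filter, a filter at 6, averaging the kept probe sets per gene, fitting a comparison on its own arrays, a robust prior with trend, an adjusted p under 0.01, and leaving out each array in turn. The labels name no batch or pairing. One label with other ages and a liver resection contradicts the rest and was not used. All mice are labelled male except mutant replicate 1, which has no such label.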

Additional observations from a re-analysis of the deposited data

Results flagged for a closer look

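In each of 33 groups of 4 arrays (the 11 kept probe sets in 3 groups), the array farthest from the others was tested with Dixon's criterion, which chance meets in about 1 in 20 groups, and 0 arrays met it. Groups of 3 arrays are not tested by this criterion.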

How the results depend on the processing

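No difference of the 8 genes, or of the other named genes where rerun, changed sign with a call under any alternative run. For the 8 genes over 6 comparisons, 330 of the results with 1 array left out kept their side of the threshold, 28 lost a call and 2 gained one; under the other alternatives 396 kept it, 22 lost a call and 2 gained one. For the other named genes these numbers were 376, 50 and 2, and 474, 27 and 9. A filter at 6 removes Hmox1, so the count of genes lower in the mutant and in the antibiotic group against treated wild type went from 1 to 0, for probe sets as for genes. In the antibiotic group against treated wild type the count higher went from 1 to 0 at an adjusted p under 0.01 and ran from 0 to 1 with arrays left out; for probe sets it was 0 at 0.01 and when fitting only the arrays of both groups, and 0 to 1 with arrays left out, and the count lower was 0 at 0.01. In the antibiotic group against untreated wild type the count higher was 3 in place of 5 after centring and at 0.01, and 3 to 5 with arrays left out. In the antibiotic group against the mutant the count lower was 1 in place of 3 when fitting only the arrays of both groups and at 0.01, and 1 to 3 with arrays left out; for probe sets it was 5 with a trended and robust prior. Probe sets higher in treated against untreated wild type numbered 4 at 0.01 and 4 to 7 with arrays left out. The fall of Gclm after treatment, the mutant differences of Gclc, Cbr1, Hmox1 and Abcc4 and the treatment differences of Txnrd1, Srxn1 and Hmox1 kept their calls under every alternative that tested them. With 3 or 4 arrays a group and Nqo1 and Cbr3 near background, small changes of these genes were beyond the measurement. No paired analysis was possible because the labels count the arrays through all groups, so that no number is shared between groups; replicate numbers here only name the arrays.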
